A study of Homo sapiens with 8 samples.

Results

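Endocan is the secreted proteoglycan encoded by ESM1, and it was examined together with 9 genes of angiogenic factors and their antagonists: VEGFA, VEGFB, VEGFC, PDGFA, FGF2, KITLG, HGF, ANGPTL4 and THBS1. These 10 genes, of the 58735 in the deposited tables, were matched from symbol to Ensembl identifier through release 29 of GENCODE, and all 10 were found. The set was drawn up because ESM1 was higher in knockdown cells, so the knockdown differences of ESM1 are given as a description with no test. Reads were numerous enough for a test in 8 of the 10 genes, and ANGPTL4 and HGF were described only. RNA was sequenced from U2OS, an established human osteosarcoma cell line, to ask whether the loss of WSB2, a substrate receptor of a ubiquitin ligase, changes gene expression before and after stimulation with the inflammatory cytokine TNF-α, which signals through NF-κB.

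All cells carried a short hairpin RNA. Control cells carried the shControl hairpin and have the genotype WT in the labels, and KD cells carried a shWSB2 hairpin and have the genotype WSB2 knockdown. Each kind was left unstimulated or was stimulated with TNF-α for 5 h, with 2 libraries in each of the 4 groups and 8 in all. Which WSB2 hairpin was used and the concentration of TNF-α for these libraries are not given in the sources used here. Nothing in the labels says that the 2 libraries of a group came from separate cultures, so the P-values measure the spread between these libraries, which may be technical.

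Endocan is best known as a product of endothelial cells, where it rises with vascular endothelial growth factor and with inflammatory cytokines. VEGFA, VEGFB and VEGFC are secreted ligands of a family of receptor tyrosine kinases: VEGFA acts on blood vessels mainly through KDR, VEGFB binds FLT1, and VEGFC acts on lymphatic vessels mainly through FLT4. FGF2, PDGFA, HGF and KITLG, the ligand of KIT, are growth factors with receptor tyrosine kinases of their own. ANGPTL4 is a secreted inhibitor of lipoprotein lipase with roles in vessels, and thrombospondin 1, encoded by THBS1, is a matrix protein that restrains vessel growth. Tumour cells, osteosarcoma cells among them, can release these factors into a tissue whose vessels carry the receptors.

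The sequences around the annotated start sites are shown for ESM1 and VEGFC, the members that rose with TNF-α in both kinds of cells, and for VEGFB, a member of the VEGF family that did not rise in control cells. Windows of 300 bases, from 250 before to 50 after the start site, were taken from RefSeq on GRCh38.p14. They lie at chr5:54985544-54985843 on the minus strand for ESM1, at chr4:176792873-176793172 on the minus strand for VEGFC and at chr11:64234334-64234633 on the plus strand for VEGFB, and are written 5′ to 3′ along the gene. Capitals mark the TATA box letters TATAAA and the GC box letters GGGCGG, on either strand.
ESM1: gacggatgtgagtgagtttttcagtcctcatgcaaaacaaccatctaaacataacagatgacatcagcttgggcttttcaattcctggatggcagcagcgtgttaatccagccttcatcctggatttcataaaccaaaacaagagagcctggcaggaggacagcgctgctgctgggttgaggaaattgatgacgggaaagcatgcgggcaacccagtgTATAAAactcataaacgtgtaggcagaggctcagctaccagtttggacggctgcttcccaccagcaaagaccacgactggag
VEGFC: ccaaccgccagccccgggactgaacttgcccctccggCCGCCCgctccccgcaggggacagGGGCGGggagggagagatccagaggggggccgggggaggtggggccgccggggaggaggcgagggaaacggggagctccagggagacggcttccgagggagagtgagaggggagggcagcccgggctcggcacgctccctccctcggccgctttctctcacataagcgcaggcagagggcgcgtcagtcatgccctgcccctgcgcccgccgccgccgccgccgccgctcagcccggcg
VEGFB: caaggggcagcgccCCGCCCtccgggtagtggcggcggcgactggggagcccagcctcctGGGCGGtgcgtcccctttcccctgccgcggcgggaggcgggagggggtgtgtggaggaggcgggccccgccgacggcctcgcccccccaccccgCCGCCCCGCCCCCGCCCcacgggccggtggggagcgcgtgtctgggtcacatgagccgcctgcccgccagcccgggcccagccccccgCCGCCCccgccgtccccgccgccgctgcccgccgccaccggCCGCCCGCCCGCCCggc
The ESM1 window held TATAAA once, beginning 32 bases before the start site, and no GC box, with a GC content of 49.3%. The VEGFC window held 2 GC boxes and no TATA box, with 76.3% of its bases G or C. The VEGFB window held 9 GC boxes, some of which overlap each other, with 84.7% of its bases G or C. Over 35116 RefSeq windows of this length, 11.5% held TATAAA and 45.0% held a GC box on either strand. The NF-κB consensus was in 5.91% of all windows and the AP-1 letters TGANTCA in 7.71%, and neither was in any of the 12 windows found for 9 of the members. The letters ACGTG or GCGTG, the core of hypoxia response elements, were in a window of all 9 members and in 48.4% of all windows. A match is a description of these letters and not of a bound site. VEGFA had no window in the table used.

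The labels were checked on WSB2 and on NF-κB feedback genes. WSB2 was at 27.7 and 28.0 FPKM in unstimulated control cells and 8.38 and 8.52 FPKM in unstimulated KD cells, and at 25.0 and 25.3 FPKM in stimulated control cells and 9.002 and 9.18 FPKM in stimulated KD cells, where FPKM are fragments per kilobase of exon, divided by a library size that equals the median-of-ratios size of each library over the 8. Both KD libraries therefore lay below both control libraries under either treatment. NFKBIA, which encodes the inhibitor IκBα, went from a mean of 22.4 to 157 FPKM with TNF-α in control cells and from 15.4 to 164 FPKM in KD cells. TNFAIP3, which encodes the feedback inhibitor A20, went from 1.78 to 39.6 FPKM in control cells and from 2.60 to 41.9 FPKM in KD cells.

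The reads recovered per library numbered from 15601098 to 18677023. The 2 unstimulated KD libraries stood apart from the other 6. Mitochondrial genes took 4.10% and 4.42% of their reads against 1.11% to 2.03% elsewhere, the mean exon GC content weighted by reads was 50.6% and 50.1% against 53.2% to 53.8%, and a read was found for 26225 and 26397 genes against 22072 to 22957. The size that FPKM were divided by was 1.21 times the reads recovered in each of these 2 and 0.925 to 1.03 times elsewhere, which sets their FPKM lower than a scaling to total reads would. Member results that rest on these 2 libraries are given below beside differences between groups of the other 6, whose P-values share a spread estimated over all 8. Fitted without the 2, those differences were the same, and VEGFC with TNF-α in control cells (adjusted p = 0.00112 from limma) was again the only call among the members other than ESM1.

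Of 10 markers of mesenchymal cells and osteoblasts, 7 were at 1 FPKM or more in each library, with a summed level from 590 FPKM in an unstimulated KD library to 828 FPKM in an unstimulated control library. SPARC or COL1A1 was the most abundant, while the osteoblast genes SP7 and BGLAP and the collagen gene COL1A2 stayed under 0.5 FPKM. Among 10 endothelial markers, EGFL7 reached 110 FPKM, and of the others only ROBO4 exceeded 1 FPKM, at up to 2.77. With TNF-α, ROBO4 went from a mean of 0.567 to 2.00 FPKM in control cells and from 0.411 to 2.67 FPKM in KD cells. Of 8 endothelial markers tested, limma called 3 higher and 0 lower with TNF-α over both, beside 53.2% of all genes. Here and below, TNF-α over both kinds of cells is the mean of its effects in control and in KD cells. In control cells it called 1 higher and 0 lower, beside 4.24%. PECAM1 had 10 reads and KDR 1 read in all 8 libraries together. None of 8 leukocyte markers reached 1 FPKM in any library, with PTPRC at 36 reads in all. Of 8 epithelial markers, 4 were at 1 FPKM or more in each library: KRT8 and KRT18 reached 362 and 197 FPKM, KRT14 ranged from 12.9 to 24.4 FPKM and CLDN4 from 2.34 to 5.02 FPKM. The other 4, EPCAM and CDH1 among them, stayed under 0.5 FPKM. The summed level of the endothelial list fell with EGFL7 to 39.4 and 32.0 FPKM in the unstimulated KD libraries from 79.0 to 113 FPKM in the other 6. That of the epithelial list was 234 and 217 FPKM there against 447 to 579 FPKM in the other 6. The part of these shifts in the member results was not tested. In bulk RNA, fewer cells that express a gene and less RNA of it per cell cannot be told apart.

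**Figure D1:**
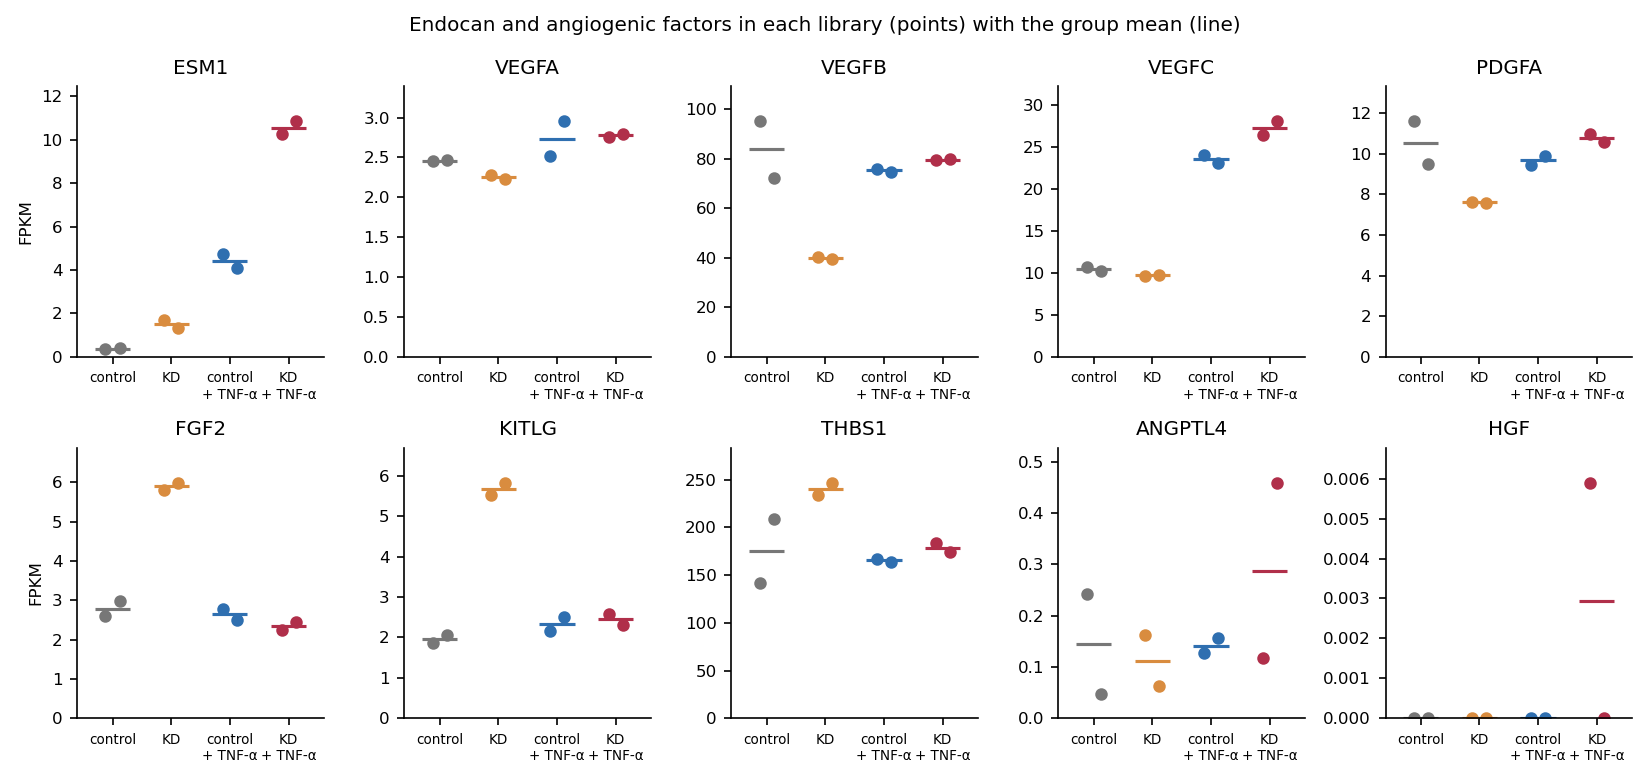
FPKM of each of the 10 genes (vertical axes, linear, each starting at 0) in the 4 groups (horizontal axis), with a point for each of the 2 libraries and a line at their mean. ESM1 rises from group to group with no overlap, VEGFC separates by TNF-α, and VEGFB, PDGFA, FGF2, KITLG and THBS1 have their lowest or highest point in the unstimulated KD libraries.

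ESM1 (ENSG00000164283, chromosome 5 from 54977864 to 55022671, minus strand, 2695 exonic bases) had the largest ratio of highest to lowest FPKM, 29.2, among the members with reads in every library. It was at 0.371 and 0.386 FPKM in unstimulated control cells and at 1.70 and 1.33 FPKM in unstimulated KD cells. With TNF-α it was at 4.76 and 4.09 FPKM in control cells and at 10.3 and 10.8 FPKM in KD cells. The order of the groups was unstimulated control, unstimulated KD, stimulated control and stimulated KD, and no neighbours in that order overlapped. TNF-α raised ESM1 over both kinds of cells by 2.09 on the log2 scale (SE 0.0841, limma adjusted p = 4.17e-06). This estimate is independent of the knockdown differences for which the gene was chosen. Its P-value is not fully so, since it uses a spread estimated from the same libraries. Fold changes here are differences of log2(FPKM + 1), so that changes of weakly expressed genes come out smaller than their ratios of FPKM. Under 16 alternative ways of processing the value stayed between 1.92 and 3.15, with adjusted p at most 1.32e-04.

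The ratio of mean FPKM with and without TNF-α was 11.7 in control cells and 6.97 in KD cells, and on the log2(FPKM + 1) scale the same differences were 1.97 and 2.20. Between KD and control cells the ratio of mean FPKM was 4.002 without TNF-α and 2.39 with it, against log2 differences of 0.86 and 1.09 on the log2(FPKM + 1) scale. Which treatment showed the larger knockdown difference thus depended on the scale: the difference of the differences was 0.23 with 1 added to FPKM, -0.51 with 0.1 added, and -0.70 when the recovered reads were fitted with voom. The depth behind the lowest values is small. ESM1 had 15 and 18 reads in the unstimulated control libraries, with exact 95% Poisson intervals of 8.40 to 24.7 and 10.7 to 28.4 reads that cover counting error only. It had 91 and 69 reads in the unstimulated KD libraries, 204 and 170 in the stimulated control libraries and 478 and 462 in the stimulated KD libraries. With a correction for GC content and length, the knockdown difference of ESM1 was 0.61 without TNF-α and 1.10 with it. A transcript annotated on the same strand within the gene, AC034238.1, had 0 reads.

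The 5 genes whose log2(FPKM + 1) was most like that of ESM1 over the 8 libraries were RGMB (Pearson r = 0.995), EGR1 (0.991), PDCD1LG2 (0.991), OAS2 (0.990) and MCL1 (0.988), of 16527 ranked. RGMB encodes a co-receptor of bone morphogenetic proteins, and its mean level was 1.89 FPKM in unstimulated control, 2.52 in unstimulated KD, 4.38 in stimulated control and 6.51 in stimulated KD cells. EGR1, an immediate-early transcription factor, was at 14.4, 19.9, 38.4 and 61.7 FPKM in the same order. MCL1, an inhibitor of apoptosis, was at 54.3, 66.0, 79.1 and 101 FPKM. PDCD1LG2 encodes the immune checkpoint ligand PD-L2, and OAS2, an interferon-stimulated antiviral enzyme, stayed under 0.51 FPKM in every library. All 5 kept the order of the 4 groups seen for ESM1. A correlation of at least 0.95 was reached by 63 genes, and the 8 points share 4 groups and their library composition, so the ranking is a description. Of the other members, VEGFC was the closest to ESM1 (r = 0.92) and FGF2 the farthest (-0.43).

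Among the VEGF ligands, VEGFC (ENSG00000150630, chromosome 4 from 176683538 to 176792727, minus strand) followed TNF-α. Without TNF-α it was at 10.6 and 10.2 FPKM in control cells and 9.59 and 9.80 FPKM in KD cells. With TNF-α it was at 24.0 and 23.1 FPKM in control cells and 26.4 and 28.1 FPKM in KD cells. All 4 stimulated libraries lay above all 4 unstimulated libraries. On the log2 scale TNF-α raised VEGFC by 1.11 in control cells (SE 0.0736, limma adjusted p = 1.76e-04), 1.40 in KD cells (adjusted p = 2.03e-05) and 1.25 over both (adjusted p = 4.85e-06). The interaction, the difference between these effects, was 0.29 with a limma adjusted p of 0.0502, and it passed with no filter on reads (0.0464) and without the second unstimulated control library (0.32, adjusted p = 0.0236). In stimulated cells the KD libraries lay above the control libraries, but the log2 difference of 0.20 (95% interval 0.03 to 0.37) did not pass after adjustment, with an adjusted p of 0.522.

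VEGFB (ENSG00000173511, chromosome 11 from 64234538 to 64238793, plus strand) was the most abundant VEGF ligand in every library. It was at 95.1 and 72.4 FPKM in unstimulated control cells and 40.1 and 39.3 FPKM in unstimulated KD cells. With TNF-α it was at 75.98 and 74.6 FPKM in control cells and 79.4 and 79.8 FPKM in KD cells. The unstimulated KD libraries were thus low and the other 6 lay together. In those 6, TNF-α changed VEGFB by a log2 fold change of -0.14 in control cells (95% interval -0.42 to 0.14, adjusted p = 0.625 from limma), or -0.33 with an adjusted p of 0.0162 without the second unstimulated control library. The knockdown difference with TNF-α was 0.08 (95% interval -0.20 to 0.36, adjusted p = 0.958). The calls of VEGFB all involve the unstimulated KD libraries: -1.04 for KD without TNF-α (adjusted p = 3.28e-04), 0.98 for TNF-α in KD cells (adjusted p = 2.97e-04) and 0.42 for TNF-α over both (adjusted p = 0.00455). After correction for GC content and length these were -0.38, 0.34 and 0.10, of which the last was not called (adjusted p = 0.156).

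VEGFA (ENSG00000112715, chromosome 6 from 43770184 to 43786487, plus strand) was the least abundant of the 3 ligands. It was at 2.45 and 2.47 FPKM in unstimulated control cells, 2.28 and 2.23 FPKM in unstimulated KD cells, 2.52 and 2.95 FPKM in stimulated control cells and 2.76 and 2.80 FPKM in stimulated KD cells. The stimulated libraries lay above the unstimulated ones, but no comparison of VEGFA passed the test. Its TNF-α effect over both kinds of cells was 0.16 (95% interval -0.01 to 0.33, adjusted p = 0.0983 from limma), at -0.004 with libraries scaled to total reads and 0.22 (adjusted p = 0.0363) in the voom fit. Its knockdown difference was 0.02 with TNF-α (95% interval -0.22 to 0.26) and -0.09 without it (95% interval -0.33 to 0.15). VEGFC exceeded VEGFA per exonic base by a ratio between 4.14 and 4.39 in the unstimulated libraries and between 7.83 and 10.0 in the stimulated libraries. VEGFC made up 9.84% and 12.01% of the summed FPKM of the 3 ligands in unstimulated control cells, 18.4% and 19.1% in unstimulated KD cells, and 23.0% to 25.3% in the 4 stimulated libraries.

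PDGFA (ENSG00000197461, chromosome 7 from 497258 to 520296, minus strand) encodes the A chain of platelet-derived growth factor. It was at 11.6 and 9.48 FPKM in unstimulated control cells and 7.61 and 7.59 FPKM in unstimulated KD cells, and with TNF-α at 9.43 and 9.90 FPKM in control cells and 10.96 and 10.5 FPKM in KD cells. As for VEGFB, the unstimulated KD libraries were the lowest. PDGFA was called lower in KD cells without TNF-α (-0.42, adjusted p = 0.00847 from limma) and higher with TNF-α in KD cells (0.45, adjusted p = 0.00562). With the correction for GC content and length these values turned to 0.14 and -0.13 and were not called. TNF-α over both was at 0.17 (adjusted p = 0.0772), at 0.24 without the first unstimulated control library and smaller without the second. It was called in 1 of 16 alternatives. In the other 6 libraries PDGFA was at -0.11 for TNF-α in control cells (adjusted p = 0.657) and at 0.14 for KD with TNF-α (adjusted p = 0.841).

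FGF2 (ENSG00000138685, chromosome 4 from 122826708 to 122898236, plus strand), a heparin-binding growth factor, moved the other way. It was at 2.59 and 2.98 FPKM in unstimulated control cells and 5.82 and 5.99 FPKM in unstimulated KD cells, and with TNF-α at 2.78 and 2.51 FPKM in control cells and 2.24 and 2.46 FPKM in KD cells. The 2 unstimulated KD libraries were the only ones above 3 FPKM. FGF2 was called higher in KD cells without TNF-α (0.87, adjusted p = 3.96e-04 from limma), lower with TNF-α in KD cells (-1.04, adjusted p = 1.44e-04) and lower with TNF-α over both (-0.55, adjusted p = 9.19e-04). The corrected values were 0.15, which was not called (adjusted p = 0.179), -0.32 and -0.19. Among the other 6 libraries, the effect of TNF-α in control cells was -0.05 (adjusted p = 0.854), and it was 0.02 without the second unstimulated control library. NUDT6 overlaps FGF2 on the opposite strand with 275 reads in all, from 0.154 to 0.415 FPKM, and whether the counting used the strand is not given in the sources used here.

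KITLG (ENSG00000049130, chromosome 12 from 88492793 to 88580851, minus strand), which encodes stem cell factor, had the same shape. It was at 1.87 and 2.06 FPKM in unstimulated control cells and 5.54 and 5.83 FPKM in unstimulated KD cells, and with TNF-α at 2.16 and 2.51 FPKM in control cells and 2.58 and 2.31 FPKM in KD cells. The unstimulated KD libraries lay above all others. KITLG was called higher in KD cells without TNF-α (1.17, adjusted p = 1.79e-04 from limma), lower with TNF-α in KD cells (-0.95, adjusted p = 2.19e-04) and lower with TNF-α over both (-0.39, adjusted p = 0.00396). The corrected values were 0.38 (adjusted p = 0.0157), -0.15 (adjusted p = 0.243) and 0.01 (adjusted p = 0.913). In the other 6 libraries TNF-α in control cells was at 0.17 (adjusted p = 0.488) and KD with TNF-α at 0.05 (adjusted p = 0.975).

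THBS1 (ENSG00000137801, chromosome 15 from 39581079 to 39599466, plus strand) was the most abundant member in every library. It was at 142 and 208.7 FPKM in unstimulated control cells and 234 and 246.6 FPKM in unstimulated KD cells, and with TNF-α at 166.8 and 164.2 FPKM in control cells and 183.4 and 174.1 FPKM in KD cells. The control replicates without TNF-α were farther apart than any other pair of the gene. THBS1 was called higher in KD cells without TNF-α (0.48, adjusted p = 0.0366 from limma), but not in 9 of 17 alternatives, with 0.145 the highest adjusted p. The difference was 0.20 without the first unstimulated control library and 0.75 without the second. Its knockdown difference with TNF-α was 0.11 (95% interval -0.27 to 0.49, adjusted p = 0.957). TNF-α over both was at -0.24 (adjusted p = 0.118), at -0.38 without the first unstimulated control library and smaller in size without the second. It was called in 3 of 16 alternatives. In KD cells it was at -0.42 (adjusted p = 0.0539), and was called in 7 of 17 alternatives, with values from -0.80 to -0.28. FSIP1 on the opposite strand (105 reads) and AC037198.1 on the same strand (103 reads) overlap THBS1.

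ANGPTL4 (ENSG00000167772, chromosome 19 from 8363289 to 8374373, plus strand) was covered by 56 reads over the 8 libraries. It was at 0.242 and 0.0466 FPKM in unstimulated control, 0.163 and 0.0626 in unstimulated KD, 0.127 and 0.157 in stimulated control and 0.117 and 0.459 in stimulated KD cells. The groups overlapped in each comparison, and the highest value rests on 18 reads (exact 95% Poisson interval 10.7 to 28.4). The antisense gene RAB11B-AS1 overlaps it with 63 reads. HGF (ENSG00000019991, chromosome 7 from 81699008 to 81770438, minus strand), which encodes hepatocyte growth factor, had 1 read, in a stimulated KD library. The other 7 libraries had 0 reads, which allows up to 3 reads each as a one-sided limit, or 0.0154 to 0.0204 FPKM by library. ANGPTL4 and HGF had too few reads for a test, so their differences between groups were not tested.

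**Figure D2:**
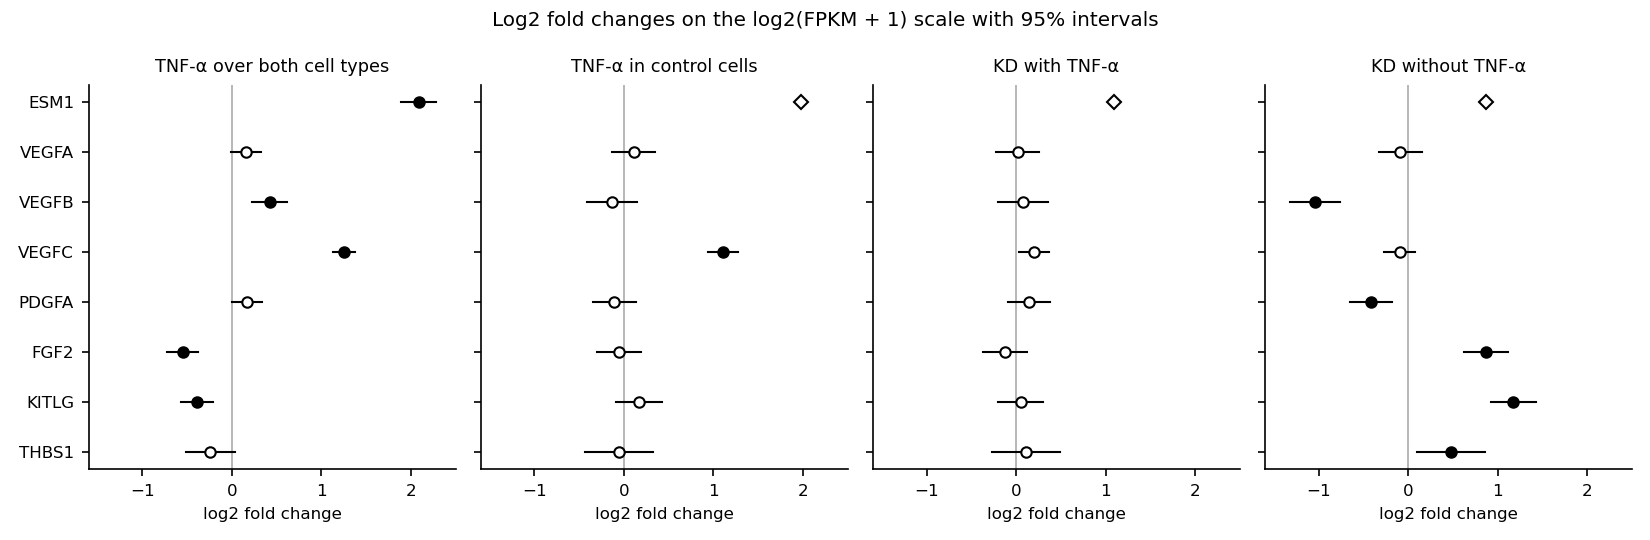
Log2 fold change on the log2(FPKM + 1) scale (horizontal axes) of the 8 members tested (vertical axis) in 4 comparisons, with 95% intervals from limma. Filled circles passed an adjusted p of 0.05, open circles did not, and open diamonds show ESM1 without an interval where its libraries are those for which it was chosen. ESM1 and VEGFC have the highest values in both panels of TNF-α, and in stimulated cells the intervals of all other members but VEGFC span 0 for KD.

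Counted over the 8 members tested, the mean of the TNF-α effects in control and KD cells was called higher for 3 (ESM1, VEGFC and VEGFB) and lower for 2 (FGF2 and KITLG). Beside them, 53.2% of all 16528 genes were called, 26.9% as higher and 26.3% as lower. In control cells alone VEGFB was at -0.14, KITLG at 0.17 and FGF2 at -0.05, and none of these was called. With the correction for GC content and length, VEGFB at 0.10 and KITLG at 0.011 were not called, beside 4068 of 16520 genes called higher and 3302 lower. In the other comparisons ESM1 was described with no test, and the counts below are over the 7 other members tested. In control cells, whose means take in no unstimulated KD library, 1 was higher (VEGFC) and 0 were lower, beside 4.24% of all genes called, 3.10% as higher and 1.14% as lower. That share is of 701 genes, which were 443 without the 2 unstimulated KD libraries and 450 without either of them, 2130 without the second unstimulated control library, 266 or 229 without the first or the second stimulated control library, and 392 or 389 without the first or the second stimulated KD library. There 3 of the 7 had libraries that did not overlap between the groups, against 42.5% of all genes. In KD cells 3 were higher and 2 lower, beside 62.5% of all genes called, 31.1% as higher and 31.4% as lower, and the libraries of all 7 did not overlap, as for 84.8% of all genes. The median log2 fold change of these 7 with TNF-α was -0.05 in control cells and 0.21 in KD cells, against 0.01 and -0.01 over all genes.

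For KD in stimulated cells, limma called 0 of these 7 members, with 1 (VEGFC) at an unadjusted p under 0.05, beside 0.115% of all genes called, 0.0605% as higher and 0.0545% as lower, and 8.16% at an unadjusted p under 0.05. The 19 genes called were 98 or 97 without the first or the second unstimulated control library, 7 without either or both unstimulated KD libraries, 3 or 2 without the first or the second stimulated control library, and 2 or 0 without the first or the second stimulated KD library. The libraries of 5 of the 7 did not overlap, with KD above control in 4, against 46.2% of all genes, and the median over the 7 was 0.08. Without TNF-α, 3 were called higher (KITLG, FGF2 and THBS1) and 2 lower (VEGFB and PDGFA), beside 60.1% of all genes, 29.8% as higher and 30.2% as lower, with a median of -0.09. There the libraries of all 7 did not overlap, as for 79.8% of all genes. The interaction of KD and TNF-α was called for VEGFB (1.12) and PDGFA (0.56) as higher and for KITLG (-1.12) and FGF2 (-0.99) as lower, beside 46.1% of all genes, 23.8% as higher and 22.3% as lower. These comparisons share libraries with each other, so their values are set side by side and not compared.

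The knockdown differences of the members without TNF-α lay nearly in the order of the GC content of their exons, with VEGFC and VEGFA exchanged. KITLG (37.2% GC) was at 1.17, FGF2 (39.3%) at 0.87, ESM1 (43.2%) at 0.86 and THBS1 (47.7%) at 0.48. VEGFC (49.1%) was at -0.10, VEGFA (56.3%) at -0.09, PDGFA (60.5%) at -0.42 and VEGFB (62.3%) at -1.04. Across the 7 members other than ESM1, which share the same libraries, the Spearman correlation was -0.96, and across 16520 genes it was -0.70. In stimulated cells it was 0.36 across these 7 and 0.04 across all genes. The median difference of all genes without TNF-α went from 0.70 at a GC content of 35% to 40% to -0.60 at 60% to 65%. With the correction for GC content and length, KITLG and VEGFB were called without TNF-α, 2 of the 7 members other than ESM1 in place of 5. Of all 16520 genes, 3935 were called higher and 4513 lower with the same correction. The part of library composition in the knockdown differences of the members was not tested.

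**Figure D3:**
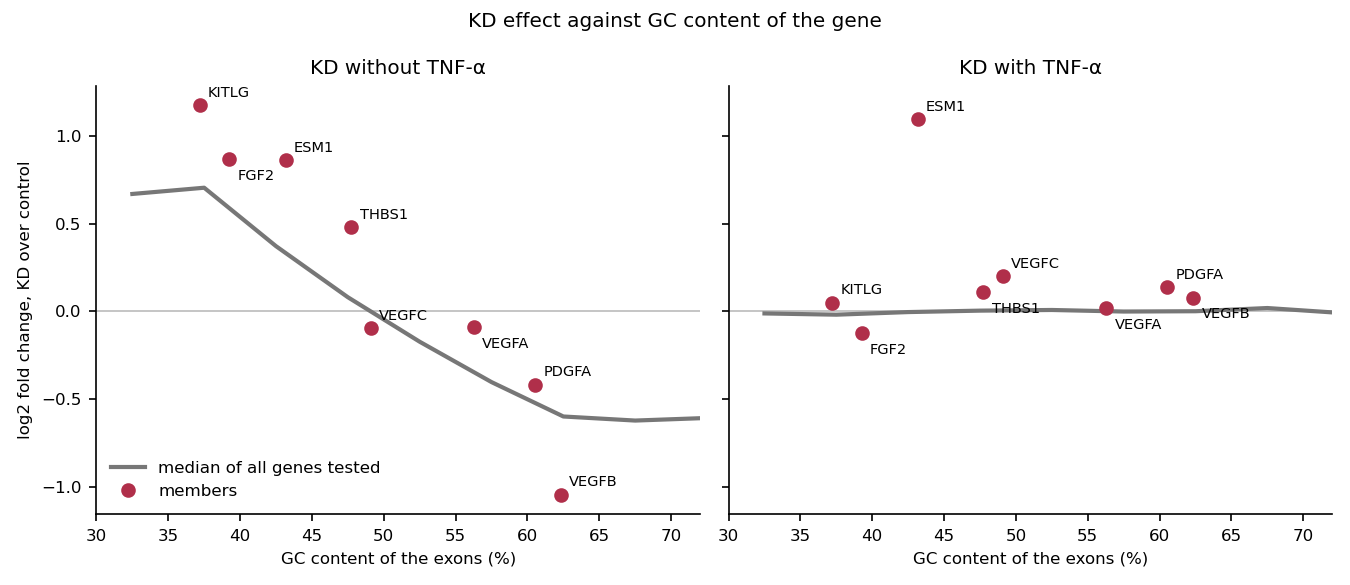
Log2 fold change of KD over control (vertical axes, log2(FPKM + 1) scale) against the GC content of the exons in percent (horizontal axes) without and with TNF-α, with a point for each of the 8 members tested and a grey line at the median of all genes in bins of 5 percentage points. Without TNF-α the points fall from KITLG at 1.17 to VEGFB at -1.04 around the falling line, and with TNF-α the line is flat, with ESM1, chosen for its knockdown differences, plotted at 1.09.

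The receptors and binding partners listed for these ligands were unevenly present in the same cells, and those whose levels come first here were named after their values had been seen. KIT had 0 reads in each of the 8 libraries, which allows up to 3 reads in each, KDR had 1 read and ITGAL 5 reads in all, while FLT1 (109 reads), NRP2 (71 reads) and CD36 (24 reads) stayed under 0.1 FPKM. FLT4, the main receptor of VEGFC, was at 2.74 ± 0.0855 FPKM in unstimulated control, 2.04 ± 0.178 in unstimulated KD, 2.97 ± 0.188 in stimulated control and 3.36 ± 0.411 in stimulated KD cells (SD, n = 2 each). MET, the receptor of HGF, had 9167 reads, from 5.67 to 14.7 FPKM, in cells with a single HGF read. PDGFRB ranged from 4.67 to 7.42 FPKM and PDGFRA from 0.0710 to 0.500 FPKM. Of 17 genes in this list, 13 were tested. With TNF-α over both kinds of cells 4 were higher and 3 lower, beside 53.2% of all genes called, and in control cells alone 1 was higher and 0 lower, beside 4.24%. For KD in stimulated cells limma called 0, with 1 at an unadjusted p under 0.05, beside 0.115% and 8.16% of all genes. The list medians in these comparisons were -0.02, -0.01 and 0.003. The largest changes over both were FGFR2 (-0.60, adjusted p = 0.00280 from limma), FGFR1 (0.43, adjusted p = 6.52e-04), FGFR4 (0.40, adjusted p = 0.00390), all receptors of fibroblast growth factors, and the co-receptor NRP1 (-0.37, adjusted p = 0.00368). In control cells alone none of these 4 passed, at -0.52, 0.18, -0.05 and -0.22.

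**Figure D4:**
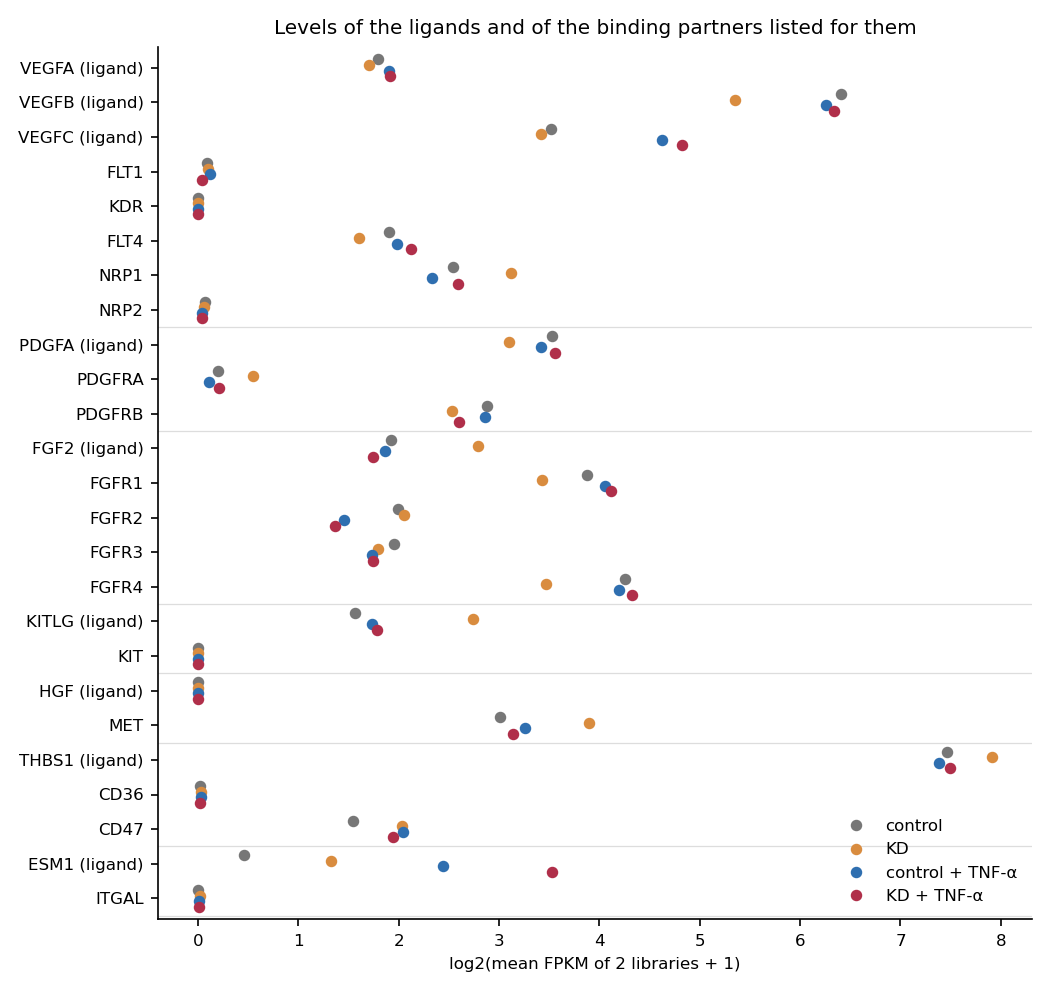
Level of each ligand and of its listed partners (vertical axis, grouped by ligand) as log2 of the mean FPKM of the 2 libraries plus 1 (horizontal axis), with a point for each of the 4 groups. THBS1 and VEGFB are the most abundant ligands, while KDR, KIT, FLT1, NRP2, CD36, ITGAL and HGF lie at or near 0.

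Of 17 other angiogenic ligands, 13 were tested, and TNF-α raised some of them by about as much as VEGFC. Over both kinds of cells 6 were higher and 2 lower, beside 53.2% of all genes, and in control cells alone 4 were higher and 0 lower, beside 4.24%, with list medians of 0.16 and 0.10. PDGFB, the B chain of platelet-derived growth factor, went from 2.08 ± 0.103 to 6.44 ± 0.0588 FPKM (SD, n = 2 each) in control cells, a log2 fold change of 1.27 (adjusted p = 7.90e-04 from limma). FGF5 went from 2.39 ± 0.597 to 7.75 ± 0.00626 FPKM (SD, n = 2 each) in control cells, at 1.38 (adjusted p = 9.43e-04). Endothelin 1, encoded by EDN1, a constrictor of vessels, went from 20.5 ± 2.06 to 45.9 ± 3.20 FPKM (SD, n = 2 each), at 1.13 (adjusted p = 6.46e-04). The matrix protein gene CCN1, named CYR61 in the annotation, went from 153 ± 0.525 to 285 ± 8.98 FPKM (SD, n = 2 each), at 0.89 (adjusted p = 0.00139). In stimulated KD cells CCN1 was at 375 FPKM, FGF5 at 10.96, EDN1 at 45.1 and PDGFB at 4.84 FPKM. For KD in stimulated cells limma called 0 of the 13, with 6 at an unadjusted p under 0.05, beside 0.115% and 8.16% of all genes, and a list median of 0.02.

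A further list held genes that process or bind these ligands. Of 13, of which 10 were tested, 3 were higher with TNF-α over both kinds of cells and 0 were lower, beside 53.2% of all genes called, with a median of 0.01. In control cells alone limma called 0, with 2 at an unadjusted p under 0.05, beside 4.24% and 17.5% of all genes. FURIN, the protease that cleaves the precursors of VEGFC and PDGFA, went from 92.2 ± 1.48 to 121 ± 7.09 FPKM (SD, n = 2 each) in control cells (0.38, adjusted p = 0.0585 from limma) and from 67.7 to 149 FPKM in KD cells, with 0.76 over both (adjusted p = 1.47e-04). The heparan sulphate proteoglycans HSPG2 (0.76, adjusted p = 0.00916) and GPC1 (0.42, adjusted p = 0.00123) were the others. In control cells HSPG2 was at 0.82 (adjusted p = 0.141), or at 0.35 without the first and 1.29 without the second unstimulated control library (16.7 and 32.9 FPKM), and GPC1 at -0.05 (adjusted p = 0.821). Among 10 angiogenesis inhibitors other than THBS1, 7 were tested and 2 were higher over both, beside 53.2% of all genes, with a list median of 0.07. They were COL18A1 (0.30, limma adjusted p = 0.0258), at 0.004 in control cells, and VASH1 (0.29, adjusted p = 0.0392), at 0.06 in control cells. In control cells alone limma called 0 of the 7, with 1 at an unadjusted p under 0.05, beside the same shares of all genes. For KD with TNF-α limma called 0 of these 10 and 0 of these 7 genes, with 1 of each list at an unadjusted p under 0.05, beside 0.115% and 8.16% of all genes, and medians of -0.01 and 0.01.

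Among 13 known regulators of VEGFA and ANGPTL4, all were tested, and 4 were higher and 2 lower with TNF-α over both kinds of cells, beside 53.2% of all genes, with a median of -0.01. In control cells 2 were higher and 0 lower, beside 4.24% of all genes. The transcription factor gene ETS1 went from 16.6 ± 1.75 to 47.1 ± 0.648 FPKM (SD, n = 2 each) in control cells, at 1.45 (adjusted p = 8.77e-05 from limma), and the nuclear receptor gene PPARD from 14.8 ± 0.590 to 23.7 ± 1.09 FPKM (SD, n = 2 each), at 0.65 (adjusted p = 0.00400). HIF1A, which encodes the oxygen-regulated subunit of the hypoxia factor, was called lower over both (-0.67, adjusted p = 0.00152), but at 0.18 in control cells (adjusted p = 0.610). The sign of the latter depended on single libraries. HIF1A was at 13.6 and 19.0 FPKM in unstimulated control cells and at 18.9 and 17.6 FPKM in stimulated control cells. Its level was 49.9 ± 5.41 FPKM (SD, n = 2) in unstimulated KD cells against group means of 16.3 to 18.3 FPKM elsewhere. VHL, which targets it for degradation, was at 0.40 over both (adjusted p = 0.00368) and at 0.27 in control cells (adjusted p = 0.253). For KD with TNF-α limma called 0 of the 13, with 2 at an unadjusted p under 0.05, beside 0.115% and 8.16% of all genes, and a median of 0.05.

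Without TNF-α, KD was past the threshold as higher and lower for 4 and 3 of the 13 receptors tested and for 5 and 5 of the 13 other ligands. It was so for 0 and 5 of the 7 inhibitors, 2 and 2 of the 10 processing genes and 4 and 1 of the 13 regulators. These counts stand beside 60.1% of all genes and rest on the 2 unstimulated KD libraries.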

How the data were processed

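RNA-seq was performed on 8 libraries of U2OS cells in 4 groups of 2. The authors deposited FPKM values for 58735 genes per library. The submitters' processing notes name CASAVA 1.8, fastp, HISAT2 2.0.5, featureCounts 1.5.0-p3, DESeq2 1.20.0 and the builds GRCh38 and hg38, with no order or role, and the study's methods name edgeR, which was not run here. FPKM times exon length times the library size that the authors divided by, recovered from the steps between low values, gave whole reads for 100% of the values, within a tolerance of 0.02 reads. That size equals the median-of-ratios size over the 8 libraries. Identifiers, positions and exon lengths matched GENCODE release 29 on GRCh38 for 58735 of 58735 genes, from which exon GC content was taken.

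The test was limma 3.58.1, run in R 4.3.3 on log2(FPKM + 1), with a mean per group, 4 residual degrees of freedom and a trend on mean expression, over the 16528 genes that kept 10 or more reads, scaled to the median depth, in 2 or more libraries and a total of 15 or more. P-values were adjusted by Benjamini-Hochberg over these genes and a gene was called below 0.05. The script was tested on simulated data.

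The members, lists and tests were chosen with earlier results of these data known. Named genes were the 10 members, 3 label checks, at most 4 called genes per list by absolute fold change with TNF-α over both cell types and with KD in stimulated cells, and the 5 genes most correlated with ESM1. Receptors outside this rule were named after their values were seen. SPARC stands among both the inhibitors and the mesenchymal markers, and KDR among both the receptors and the endothelial markers. Alternatives were a pseudocount of 0.1, no filter, a mean of at least 1 CPM, scaling to total reads, upper-quartile factors, voom on recovered reads, only the groups compared, no unstimulated KD libraries, a correction by splines (5 degrees of freedom) on GC content and length, the replicate block, and leaving out each library. Promoter windows were read from RefSeq. Python 3.11.15 with pandas 2.3.3, scipy 1.17.1 and matplotlib 3.10.9 was used.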

Additional observations from a re-analysis of the deposited data

Results flagged for a closer look

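The knockdown difference of 4 members was not the same with and without TNF-α by the interaction term of the limma fit. That term was called for 46.1% of all genes, 23.8% as higher and 22.3% as lower. For VEGFB, the interaction was 1.12 (adjusted p = 0.00251), for PDGFA 0.56 (adjusted p = 0.0156), for KITLG -1.12 (adjusted p = 0.00195) and for FGF2 -0.99 (adjusted p = 0.00252). Each rests on the 2 unstimulated KD libraries, where the members with GC-rich exons were low and those with AT-rich exons were high. With a correction for GC content and length the values were 0.48 for VEGFB (adjusted p = 0.0152), 0.003 for PDGFA (adjusted p = 0.987), -0.32 for KITLG (adjusted p = 0.121) and -0.26 for FGF2 (adjusted p = 0.129), and ESM1, described with no test in the uncorrected values, was at 0.49. PDGFA was at 0.56 (adjusted p = 0.0517) without the second unstimulated KD library, at 0.53 (adjusted p = 0.0598) without the first stimulated control library and at 0.53 (adjusted p = 0.0609) without the first stimulated KD library. Groups of 2 libraries allow no search for outlying libraries.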

How the results depend on the processing

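With TNF-α over both kinds of cells, 5 members were called, and 3 with the correction for GC content and length. With the correction, 4068 of 16520 genes were called higher and 3302 lower. With that correction the calls among the 7 members other than ESM1 went from 5 to 2 for KD without TNF-α and from 4 to 1 for the interaction. Beside them, 3935 of 16520 genes were called higher and 4513 lower for KD without TNF-α, and 3102 and 2479 for the interaction. Tallies with ESM1 included, which test nothing for a gene chosen on these differences, went from 6 to 3 and from 4 to 2. For KD with TNF-α none of the 7 other members was called under any of 18 alternatives. With ESM1 included the count was 1 and is no test of that gene, and it was 0 with log2(FPKM + 0.1), without a filter, without the 2 unstimulated KD libraries and with the replicate block, and 0 to 1 with each library left out, 0 without either library of the unstimulated KD, stimulated control or stimulated KD group. ESM1 itself stayed between 1.00 and 1.25 there. Nothing in the labels says whether same-numbered libraries were paired. Their deviations from the group means correlated from -0.19 to 0.35 across genes, with the highest value between unstimulated control and unstimulated KD cells. The replicate block changed no other member count by more than 1.5 times.

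Values of the members that changed sign were the following. With the correction, TNF-α over both was 0.011 for KITLG, -0.13 for PDGFA and -0.019 for VEGFA, TNF-α in control cells was -0.0066 for VEGFA, TNF-α in KD cells was -0.13 for PDGFA and -0.032 for VEGFA, KD without TNF-α was 0.14 for PDGFA, 0.044 for VEGFA and 0.082 for VEGFC, and the interaction was -0.026 for VEGFA. With scaling to total reads, TNF-α over both was -0.034 for PDGFA and -0.0039 for VEGFA, TNF-α in KD cells was -0.059 for VEGFA, KD without TNF-α was 0.11 for VEGFA and 0.16 for VEGFC, and the interaction was -0.11 for VEGFA. Upper-quartile factors put KD with TNF-α at -3.0e-04 for VEGFA. The interaction of ESM1 was -0.51 with log2(FPKM + 0.1) and -0.70 with voom. With a library left out, TNF-α in control cells ranged from -0.13 to 0.021 for FGF2, -0.24 to 0.026 for PDGFA, -0.33 to 0.22 for THBS1 and -0.33 to 0.057 for VEGFB, and KD with TNF-α from -0.026 to 0.13 for KITLG and -0.066 to 0.10 for VEGFA. Of these, KITLG over both, PDGFA in KD cells and PDGFA for KD without TNF-α had been called. The causes were not tested.

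Over all genes, the 19 called for KD with TNF-α were 39 with only the groups compared, 52 with voom, 63 with the correction, 13 with log2(FPKM + 0.1), 10 with the replicate block and 7 without a filter. The 701 called for TNF-α in control cells were 368 without a filter and 238 with only the groups compared.

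Scaling to total reads moved the median of all genes from -0.02 to -0.13 with TNF-α over both, from -0.01 to -0.19 with TNF-α in KD cells, to 0.13 for KD without TNF-α and to -0.14 for the interaction. The share of called genes that were higher moved from 50.5% to 28.2%, from 49.8% to 31.4%, from 49.7% to 65.3% and from 51.7% to 33.0%. Depth limits ESM1 in unstimulated control cells, ANGPTL4 and HGF.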
